A study of Caenorhabditis elegans with 2 samples.

Results

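The 47 genes described here carry an rpl- name followed by a digit and are annotated as protein-coding, out of 19973 protein-coding genes on the nuclear chromosomes of Caenorhabditis elegans. The names are those of the Ensembl annotation of assembly WBcel235, and the rule used names alone, with no binding value in it. RefSeq gives 45 of them as proteins of the large ribosomal subunit. Of the remaining members, rpl-24.2 is given as the ribosome biogenesis protein RLP24, and rpl-42 as a NAM-associated domain-containing protein, which is not a ribosomal protein.

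The large subunit of the ribosome holds the site where peptide bonds form, the tunnel through which the new chain leaves, and the stalk that recruits translation factors. Its proteins are needed in fixed proportion with one another and with ribosomal RNA, and larval growth makes heavy demands on their synthesis. NHR-84 belongs to the nuclear hormone receptors, a family of transcription factors with a zinc-finger DNA-binding domain that is greatly expanded in nematodes.

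NHR-84 binding was measured by ChIP-seq in first-stage (L1) larvae of strain OP357, whose genotype is unc-119(tm4063) III; wgIs357. The strain stably expresses NHR-84 fused at its C-terminus to a GFP-FLAG tag from the inserted transgene wgIs357, so the protein measured is the tagged one. Chromatin was taken from whole animals, males and females pooled, and sheared by sonication, and the antibody is labelled by its target. There was 1 group with 2 biological replicates, no second condition, and a control that was not analysed here. In whole animals, binding in few cells and weak binding in many cells cannot be told apart.

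Each replicate and the pool of both is described by a list of 30000 called regions on build ce11, each with a summit and the authors' own signal value, and a shorter list comes from the irreproducible discovery rate (IDR) step, which compares the ranks that replicates give to a region. On ce11 this IDR list is the top of the pooled one, down to a signal of 52. A peak in it need not rank high in both replicates. The lowest signal was 9.08 in replicate 1, 8.96 in replicate 2 and 16.2 in the pool, and the lists reach into background. The scale of the signal is not stated, so a signal is read against others of its own list and rank 1 is the highest of a list. The lists hold no read counts, so sequencing depth is unknown. A gene was counted as marked when a summit fell in its promoter window, which began 500 bases before the annotated transcription start site (TSS) and ended 100 bases after it.

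A minority of the large subunit genes carried some of the strongest NHR-84 regions of the genome, and many others carried none. The highest region of the pooled list lay upstream of rpl-3, and rpl-35, rpl-20, rpl-15, rpl-12, rpl-23 and rpl-11.2 completed a group of 7 genes with an IDR peak in the window. These 7 were 14.9% of the 47 genes (95% Wilson interval 7.41 to 27.7%), against 0.33% of all protein-coding genes. A pooled region of any rank lay in 27 windows, or 57.4% (43.3 to 70.5%), against 21.2% of all protein-coding genes. One of the 1000 highest regions lay in 9 windows, or 19.1% (10.4 to 32.5%), against 1.71%. The remaining 20 genes were unmarked in the pooled list. Intervals here cover counting error over genes only.

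**Figure D1:**
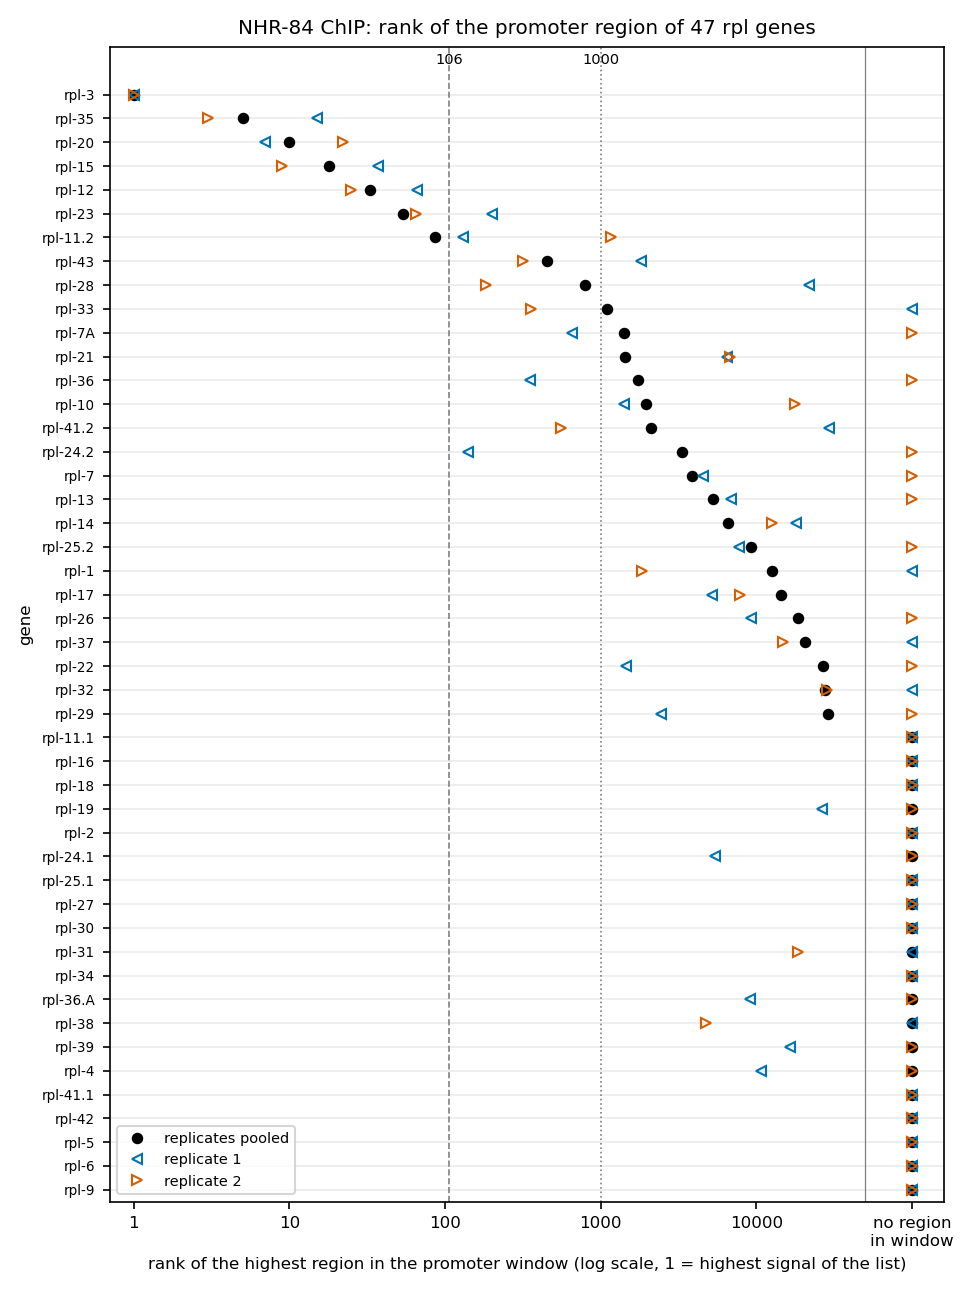
Rank of the highest NHR-84 region in the promoter window of each of the 47 rpl genes, on a log scale, for the pooled list (filled circles) and each replicate (open triangles), with genes lacking a region at the right edge. The dashed line marks the end of the IDR list, and the dotted line rank 1000. Markers of both replicates lie far to the left for the first 6 genes and spread apart lower down.

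The sequences under the strongest peaks are shown because they shared short words that were scarce in the other regions. Each holds the pooled summit with 50 bases on either side, read 5′ to 3′ on the strand of the rpl gene from the RefSeq WBcel235 genome, the assembly called ce11. Capitals mark 3 words of 7 bases. The first is AACACGC on one strand or GCGTGTT on the other, the second AAGTGTA or, reversed, TACACTT, and the third ACACTCG or, reversed, CGAGTGT. The second and the third overlap in the letters AGTGT. The first 6 windows belong to genes with an IDR peak. The last is that of rpl-43, the next gene by rank, which was not among the windows from which the words were picked. None of the printed windows overlapped an annotated gene. The window of rpl-12 runs into that gene's first exon and is not printed.
rpl-3 (chrIII:3867529-3867629, plus strand): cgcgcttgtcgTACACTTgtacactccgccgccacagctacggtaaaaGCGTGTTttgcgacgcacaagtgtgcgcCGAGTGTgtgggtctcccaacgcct
rpl-35 (chrIII:7854643-7854743, plus strand): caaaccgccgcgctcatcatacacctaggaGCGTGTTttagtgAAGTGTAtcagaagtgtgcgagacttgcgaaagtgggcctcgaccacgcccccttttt
rpl-20 (chrIV:4750004-4750104, minus strand): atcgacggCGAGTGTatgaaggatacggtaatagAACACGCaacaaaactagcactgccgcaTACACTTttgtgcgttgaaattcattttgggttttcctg
rpl-15 (chrIV:654892-654992, minus strand): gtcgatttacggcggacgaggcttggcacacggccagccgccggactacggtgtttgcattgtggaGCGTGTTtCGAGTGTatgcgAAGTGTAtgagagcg
rpl-23 (chrIII:5706376-5706476, minus strand): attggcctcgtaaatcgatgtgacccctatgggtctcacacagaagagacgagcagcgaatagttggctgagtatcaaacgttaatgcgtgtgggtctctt
rpl-11.2 (chrX:2242957-2243057, minus strand): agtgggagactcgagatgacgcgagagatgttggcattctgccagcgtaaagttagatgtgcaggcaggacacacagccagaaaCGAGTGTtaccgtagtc
rpl-43 (chrII:14155102-14155202, plus strand): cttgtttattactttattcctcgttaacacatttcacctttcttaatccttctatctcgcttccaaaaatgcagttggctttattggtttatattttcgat

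Among all words of 7 bases, these 3 were the ones found in at least 4 of the 7 such windows at the IDR summits of rpl genes, and each was found in 4. Since the words were picked from these 7 windows, their frequency there is a description. All 3 words stood together at rpl-3, rpl-20 and rpl-15. The rpl-35 window held the first and second, the rpl-11.2 window the third, and those of rpl-12 and rpl-23 none. The third word read CGAGTGT on the strand of the rpl gene in all 4 windows that held it. The order of the words along the gene's strand was different in each of the 3 windows that held them all. At rpl-3 the first bases of the words lay 39 and 2 bases before the summit and 26 after it, at rpl-20 they lay 42 and 16 before and 12 after, and at rpl-15 they lay 16, 24 and 36 after.

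Outside the windows used to pick them, the words were rare. AACACGC was found at 1 of the other 20 marked rpl genes, at 3 of the 94 IDR peaks outside the promoter windows of rpl and rps genes (3.19%) and at 0.572% of the 29894 lower pooled regions. AAGTGTA was found at 0 of the 20, at 3 of the 94 and at 1.55% of lower regions. ACACTCG was found at 1 of the 20, at 0 of the 94 and at 0.482% of lower regions. Among the 5 IDR peaks at small subunit genes, 1 word was found, AAGTGTA at rps-1. All 3 together were found at none of the other rpl regions, small subunit peaks, other IDR peaks or lower regions. Base composition differed between these sets, and its part in the counts was not tested. Median GC content of the windows was 52.5% at the 7 rpl peaks and 37.6% at the other 20 rpl regions. It was 49.5% at small subunit peaks, 44.6% at other IDR peaks and 36.6% at lower regions.

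The same words were then counted in the whole promoter windows of 601 bases. All 3 were present in 7 of 19973 windows (0.035%). Of these, 3 were those of rpl-3, rpl-20 and rpl-15, and 2 were those of Y17G9B.5 and K11H12.8, which share their upstream sequence with rpl-20 and rpl-15. The other two are listed under the single name F56A4.12 on chromosome V, and neither held a pooled region. Alone, ACACTCG was present in 12 of 47 rpl windows (25.5%) against 3.28% of all protein-coding genes. It was in 5 of the 20 windows with a lower pooled region and in 3 of the 20 unmarked ones. AACACGC was present in 7 rpl windows (14.9% against 4.34%), but 4 of them were those of the IDR genes from which it was picked, 1 was among the 20 with a lower pooled region and 2 among the 20 unmarked. AAGTGTA was present in 6 (12.8% against 9.03%), of which 4 were IDR genes, 0 had a lower region and 2 were unmarked. Of the 12 windows with ACACTCG, 4 were likewise those of IDR genes. A match is a string of letters and not a measured binding site.

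By place in the subunit, the catalytic core came first. The rpl-3 product (uL3, WBGene00004414) reaches towards the peptidyl transferase centre, and its region ranked 1 in the pooled list with a signal of 175, 1 in replicate 1 with 77.1 and 1 in replicate 2 with 98.7. Both replicates therefore placed it above every other region of the genome, with summits 9 bp apart. The rpl-10 product (uL16) is seated late in assembly and completes the catalytic site. Its region ranked 1949 in the pool, 1419 in replicate 1 and 17755 in replicate 2. The summits lay 11 bp apart, but the replicates did not rank that region alike. The window of rpl-2, whose product (uL2) borders the same centre, held no region in any list.

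At the tunnel exit, rpl-35 (uL29, WBGene00004449) encodes a protein of the rim where factors dock that receive the new chain. Its region ranked 5 in the pool with a signal of 112, 15 in replicate 1 with 45.5 and 3 in replicate 2 with 69.8. The other 8 genes of the tunnel group were lower or unmarked. The rpl-25.2, rpl-17 and rpl-26 regions ranked 9242, 14453 and 18636, and rpl-4, rpl-19, rpl-25.1, rpl-31 and rpl-39 had no pooled region in the window. The rpl-4 and rpl-17 products (uL4 and uL22) narrow the tunnel. A pooled region of rank 723 lay within the rpl-4 gene beyond the window, and one of rank 1458 within rpl-25.1.

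The stalk group had both members marked. The product of rpl-12 (uL11, WBGene00004424) lies at the base of the stalk that recruits translation factors. Its region, chrIV:13240508-13240811, ranked 33 in the pool with a signal of 70.5, 66 in replicate 1 with 32.0 and 25 in replicate 2 with 42.3. Alone among the 7 IDR peaks it lay at the TSS, with the pooled summit 9 bp upstream. The region of rpl-1, whose product (uL1) forms the opposite stalk, ranked 12521 and was found in replicate 2 and not in replicate 1.

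The 5S RNA particle is built from uL18 and uL5, and it is known in yeast and mammals to assemble before it joins the subunit. The uL5 protein has a pair of genes, rpl-11.1 and rpl-11.2. The rpl-11.2 (WBGene00004423) region ranked 86 in the pool with a signal of 55.4, 130 in replicate 1 with 27.9 and 1166 in replicate 2 with 19.5. It was the weakest of the 7 IDR peaks at rpl genes, and the only rpl window with 2 pooled regions. Neither rpl-11.1 nor rpl-5, the uL18 gene, had a region in any list.

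Bridge proteins touch the small subunit, and the 4 genes placed in this group are not a full list of them. The rpl-23 gene, whose product lies on the subunit interface, was not placed here and had an IDR peak. Of the 4 genes, rpl-41.2 was marked, at rank 2111 in the pool, 29460 in replicate 1 and 557 in replicate 2. Its replicate summits lay 135 bp apart. The window of rpl-41.1 held no region, nor did that of rpl-30, and rpl-24.1 had one in replicate 1 alone, at rank 5421.

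Outside these places, 5 more genes reached the first 1000 regions. The products of rpl-20 and rpl-15 (eL20, WBGene00004432, and eL15, WBGene00004427) are proteins of archaeal and eukaryotic ribosomes. The rpl-20 region ranked 10 with a signal of 102, 7 in replicate 1 with 56.3 and 22 in replicate 2 with 44.1. The rpl-15 region ranked 18 with 88.2, 37 in replicate 1 with 36.7 and 9 in replicate 2 with 55.8. Each was among the strongest regions of both replicates, rpl-20 better placed in replicate 1 and rpl-15 in replicate 2. The rpl-23 product (uL14, WBGene00004435) lies on the subunit interface, where the assembly factor eIF6 binds. Its region ranked 54 with 59.8, 201 in replicate 1 with 25.7 and 65 in replicate 2 with 33.4.

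The rpl-43 and rpl-28 regions were below the IDR list. The rpl-43 (eL43) region ranked 450 in the pool with a signal of 39.1, 1827 in replicate 1 with 18.3 and 315 in replicate 2. The rpl-28 (eL28) region ranked 794 with 35.5, 21870 in replicate 1 with 10.3 and 184 in replicate 2 with 26.6. Replicate 2 ranked both higher, and for rpl-28 the rank rested on replicate 2. The next genes were rpl-33 at rank 1105, found in replicate 2 (rank 356) and not in replicate 1, rpl-7A at 1406, found in replicate 1 (rank 655) and not in replicate 2, and rpl-21 at 1433. For rpl-21 the replicates ranked 6518 and 6796, with summits 497 bp apart. The caller's q-value was 0.0182 at rpl-3, rpl-35, rpl-20 and rpl-15, 0.0769 at rpl-12, 0.215 at rpl-23 and 0.287 at rpl-11.2. It was 0.800 at rpl-43 and rose to 0.917 at the highest among the 27 marked genes.

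The replicates were close at the top and diverged below. A region lay in the window in 28 genes in replicate 1 (59.6% against 21.8% of all protein-coding genes) and in 20 in replicate 2 (42.6% against 20.9%). It did so in both replicates at 14 genes (29.8% against 8.13%), in replicate 1 alone at 14 and in replicate 2 alone at 6. At 11 of the 14 the summits lay within 100 bp of each other (23.4% against 4.8%), and at rpl-21, rpl-41.2 and rpl-17 they lay farther apart. One of the 1000 highest regions lay in 10 windows in each replicate (21.3% both times, against 1.67% in replicate 1 and 1.47% in replicate 2). Ranks of the replicates had a Spearman rho of 0.72 across the 14 genes, and of 0.81 across the 11 with close summits. Genes are not independent replicates, and some share a peak with a neighbour, so no p is given.

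Among the 7 genes with an IDR peak, replicate 2 gave the better rank at rpl-35, rpl-15, rpl-12 and rpl-23 and replicate 1 at rpl-20 and rpl-11.2, while rpl-3 was first in both. With as many of the highest regions of 1 replicate in place of the IDR list, 5 rpl genes were counted in replicate 1 (10.6% against 0.245% of all protein-coding genes) and 6 in replicate 2 (12.8% against 0.29%). Several genes stood high in 1 replicate and were missing from the other. The rpl-24.2 region ranked 141 in replicate 1, the rpl-36 region 353 and the rpl-22 region 1456, each with no region in the window in replicate 2. Lists without counts cannot tell a weaker replicate from a shallower one.

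**Figure D2:**
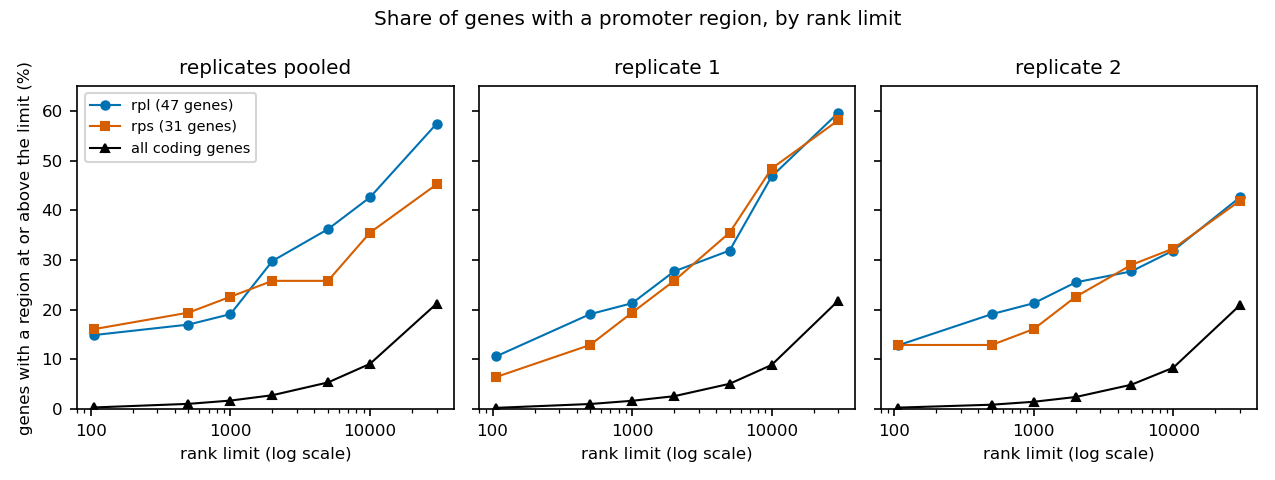
Share of the 47 rpl genes, the 31 rps genes and all protein-coding genes with a region at or above a rank limit in the promoter window, for the pooled list and each replicate, with the limit on a log scale. The rpl share ran above that of all protein-coding genes at each limit drawn, from 14.9% against 0.33% at the length of the IDR list to 57.4% against 21.2% at rank 30000 in the pool.

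Most of the 7 IDR peaks at rpl genes lay well upstream. Over the 27 marked genes the pooled summit was upstream of the TSS at 22 and at or downstream of it at 5. The window reaches farther upstream than downstream, so this count cannot show that the summits favoured the upstream side. Their median position was -230 bp (quartiles -370 and -27), against -181 bp (-330 and -44) over all marked protein-coding genes. Of the 7 IDR peaks, 6 lay over 250 bp upstream, at 275 bp for rpl-3, 276 for rpl-20, 299 for rpl-23, 366 for rpl-15, 389 for rpl-11.2 and 441 for rpl-35. The same was true of 4 of the 5 IDR peaks at small subunit genes and of 30 of 66 protein-coding genes with an IDR peak (45.5%). The annotated start of a C. elegans gene is often a trans-splice site downstream of the true start of transcription, so these distances are to the annotated 5′ end. Across the 9 genes in the first 1000 regions, the replicate summits lay within 80 bp of each other.

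**Figure D3:**
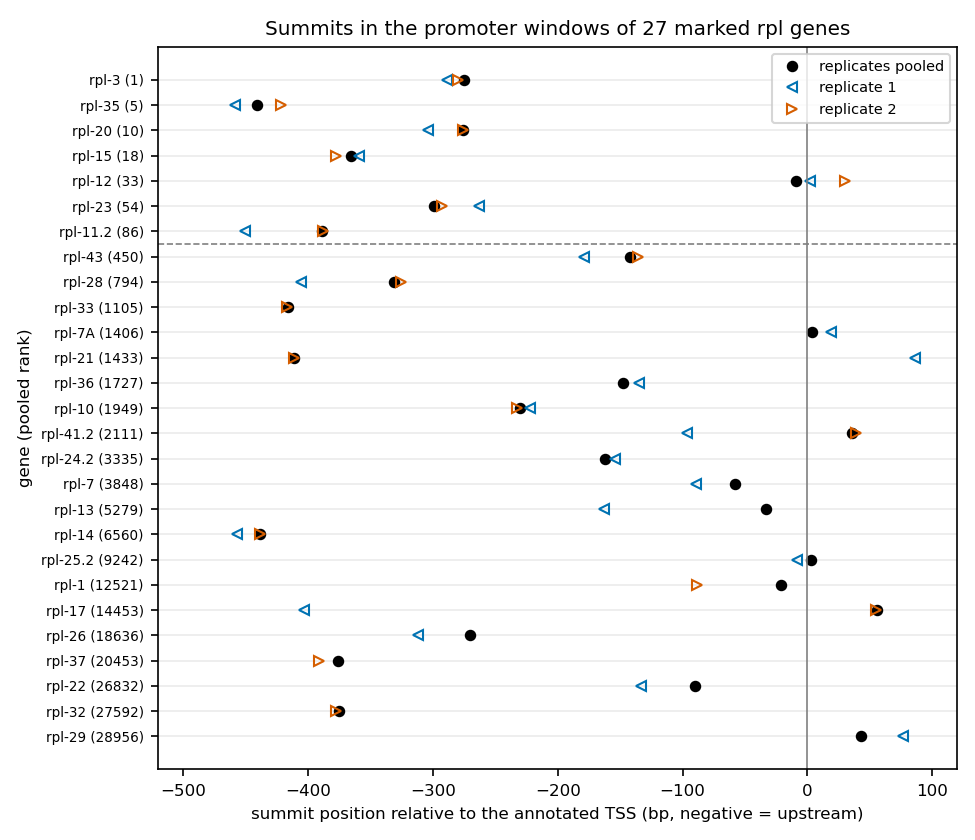
Position of the summit relative to the annotated TSS, in bp with upstream negative, for the 27 marked rpl genes ordered by pooled rank, in the pool (filled circles) and each replicate (open triangles). Above the dashed line are the 7 genes with an IDR peak, all but rpl-12 over 250 bp upstream. Replicate summits there lie beside the pooled one, while those of rpl-21 and rpl-17 are far apart.

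The window sets what is counted, and 2 genes had an IDR peak just outside it. One of rank 83 (signal 55.6) lay 722 bp upstream of rpl-43, and one of rank 95 (53.3) lay 773 bp upstream of rpl-7. A pooled region within the gene beyond the window was found for 14 members (29.8%, against 49.3% of all protein-coding genes), which are short genes, with a median length of 753 bp against 2027 bp.

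Several peaks could belong to a neighbour as well. At 14 of the 27 marked genes the summit also lay in the window of another annotated gene, and at 11 that gene was protein-coding, on the opposite strand in 10. Sharing was more frequent than over all marked protein-coding genes. With only summits in 1 gene's window kept, 14 of the 27 still had a region, against 3268 of 4242 protein-coding genes. Among the IDR peaks, rpl-3, rpl-35 and rpl-23 had theirs to themselves. The rpl-20 summit lay 186 bp upstream of Y17G9B.5, the rpl-15 summit 448 bp upstream of K11H12.8, and the rpl-12 summit 384 bp upstream of lin-54, a gene of the DREAM repressor complex. The rpl-11.2 summit lay 108 bp upstream of AH9.7 and linc-78, both non-coding. The 3 protein-coding neighbours are on the opposite strand, and the start of Y17G9B.5 was nearer to the summit than that of rpl-20. Below the IDR list, rpl-28 shared its region with mrpl-49, a gene of the mitochondrial ribosome whose start was nearer, at 188 bp against 331 bp. Every stretch of 36 bases in the regions of the 9 highest genes was unique in the genome, 269 of 269 in each, so a read of that length from these regions has 1 place in the assembly.

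The members were spread over all 6 nuclear chromosomes, and the 7 IDR peaks in their windows lay on III, IV and X. Chromosome I held 15 of the 47 genes, the most of any, and 8 were marked. None had one of the first 1000 regions in the window, the best being rpl-41.2 at 2111. Outside the window, this chromosome held the IDR peak of rank 95 upstream of rpl-7 and the region of rank 723 within rpl-4. Protein-coding genes there were marked in 23.0% of cases and had an IDR peak in 0.521%, and those with one include rps-19, rps-20 and rps-26. Chromosome III held 9 members, of which 6 were marked and 3 had an IDR peak, against 25.8% and 0.568% of its protein-coding genes. Chromosome IV held 7, of which 5 were marked and 3 had an IDR peak, against 21.2% and 0.427%. On X, 1 of 2 members had an IDR peak, against 0.0732%. On II, 6 of 9 were marked (19.4% of protein-coding genes there), the best being rpl-43, and on V 1 of 5 was marked (19.4%), rpl-28. Differences between chromosomes were not tested.

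Genes with the same number were compared side by side. Among those for the same protein, rpl-11.2 ranked 86 and rpl-11.1 was unmarked, rpl-41.2 ranked 2111 and rpl-41.1 was unmarked, and rpl-25.2 ranked 9242 and rpl-25.1 (uL23) was unmarked. In each of these pairs it was the copy numbered 2 that was marked, but this depends on the window and on weak regions. A pooled region of rank 1458 lay within rpl-25.1, its summit 163 bp from the TSS and so past the window. The rpl-25.2 region was found in replicate 1 and not in replicate 2. The rpl-41.2 region ranked 29460 in replicate 1 and 557 in replicate 2. The rpl-24.2 product RLP24 is known in yeast to hold the place of eL24 during assembly. Its region ranked 3335 in the pool, while rpl-24.1, the eL24 gene, was unmarked there. The pairs rpl-7 and rpl-7A (uL30 and eL8) and rpl-36 and rpl-36.A (eL36 and eL42) share only a number. They ranked 3848 and 1406, and 1727 and unmarked.

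No region lay in the window in any list for 13 genes, which were rpl-2, rpl-5, rpl-6, rpl-9, rpl-11.1, rpl-16, rpl-18, rpl-25.1, rpl-27, rpl-30, rpl-34, rpl-41.1 and rpl-42. A further 7 were unmarked in the pool and had a region in 1 replicate. Those in replicate 1 were rpl-4, rpl-19, rpl-24.1, rpl-36.A and rpl-39, at ranks from 5421 to 26363, and those in replicate 2 were rpl-31 and rpl-38, at 18642 and 4734. Over the 20 genes, the nearest pooled summit lay 163 to 3689 bp from the TSS, with a median of 651 bp. A missing region means that none reached the list, not that NHR-84 was absent. The marked genes below rank 1000 numbered 18, and the median rank of all 27 was 1949, against 12480 for all marked protein-coding genes. Over the 28 genes marked in replicate 1 the median was 3511, and over the 20 marked in replicate 2 it was 862, against 13046 and 13093. These sets of genes differ from each other and from the 27, so the medians differ in membership as well as in rank.

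Other genes of the ribosome showed which of these features were shared. Of the 31 small subunit (rps-) genes, 14 were marked (45.2%), 7 held one of the 1000 highest regions (22.6%) and 5 held an IDR peak (16.1%, 7.09 to 32.6%). The highest were rps-19 at rank 9, rps-1 at 26, rps-20 at 65, rps-26 at 89 and rps-28 at 105. In replicates 1 and 2, rps-19 ranked 9 and 16, rps-26 214 and 90, and rps-20 795 and 51. The replicates were farther apart at rps-1 (1306 and 11) and rps-28 (30 and 13475). The rps shares were close to those of the rpl genes and their intervals overlap. Of the 4 large subunit proteins under other names, ubq-2 ranked 505, rla-2 4351 and rla-1 29138, and rla-0 was unmarked. The rla genes encode the proteins of the stalk that rests on the rpl-12 product.

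Mitochondrial ribosomal genes and assembly genes are read against the same shares of all protein-coding genes, 21.2% marked, 1.71% with one of the 1000 highest regions and 0.33% with an IDR peak. Of 41 mrpl- genes, 16 were marked (39%, 25.7 to 54.3%), 2 held one of the 1000 highest regions (4.88%) and 0 an IDR peak, which allows a share of up to 7.32%. Of 29 mrps- genes, 8 were marked (27.6%, 14.7 to 45.7%), 1 held one of the 1000 highest regions (3.45%) and 0 an IDR peak, which allows up to 10.3%. The highest were mrps-7 at rank 594, mrpl-28 at 620 and mrpl-49 at 794, the last in the region it shares with rpl-28. Of 18 genes for ribosome assembly, 6 were marked (33.3%, 16.3 to 56.3%), 0 held one of the 1000 highest regions and 0 an IDR peak, which allows up to 16.7%. The best of them were eif-6 at rank 1667, ncl-1, a repressor of nucleolar size, at 2034, and lpd-6 at 2617. The mrps- and assembly intervals include the share of all protein-coding genes, a count of 0 is near what a share of 0.33% gives in lists of this size, and differences between the lists were not tested.

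**Figure D4:**
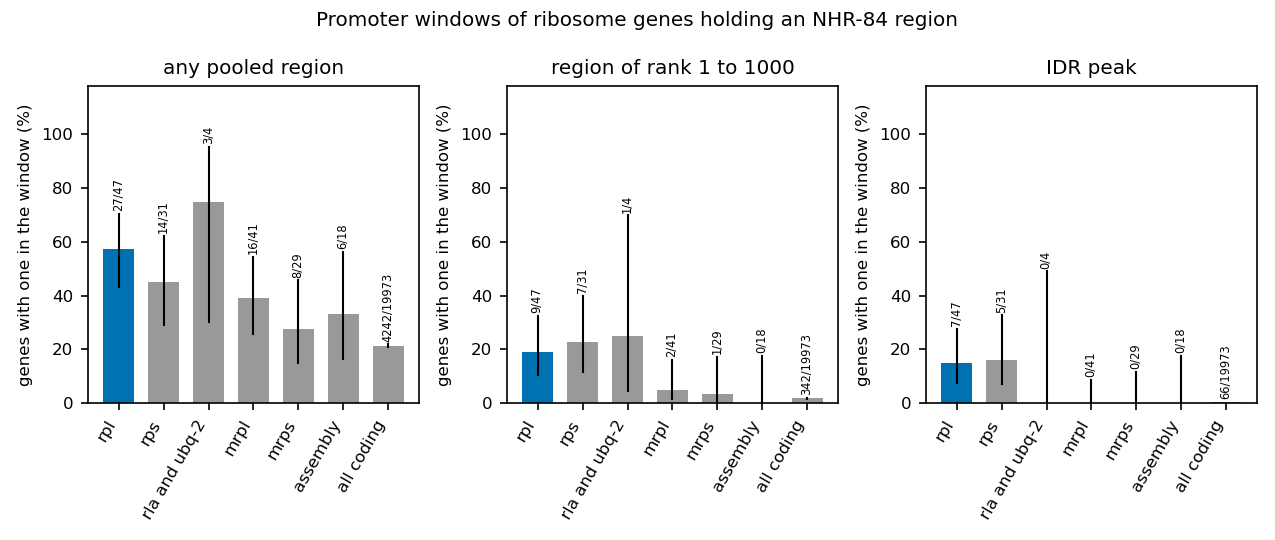
Share of genes with a pooled region of any rank, with a region of rank 1 to 1000, and with an IDR peak in the promoter window, for the rpl genes, other ribosome gene lists and all protein-coding genes. Bars start at 0, lines are 95% Wilson intervals over genes, and counts are written above. Only the rpl and rps lists had an IDR peak among the 6 ribosome lists drawn, with 7 of 47 and 5 of 31.

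A further 9 words were counted on both strands of each promoter, from 250 bases before to 50 after the annotated start. This stretch leaves out the summits of 6 of the 7 IDR peaks at rpl genes, which lay over 250 bp upstream. The promoter shares therefore do not describe the sequence under those peaks. AGGTCA, the core word of nuclear receptor sites, was in 4 of 47 rpl promoters (8.51%) and in 8.27% of all promoters. Around summits it was at 0 of the 7 rpl IDR peaks and 2 of the other 20 rpl regions (10%). It was at 4.26% of the 94 other IDR peaks and 2.51% of lower regions, and 0 of 7 is near those shares. In the promoters, the TATA word TATAAA was in 12 rpl genes (25.5% against 37.9%), the E-box CACGTG in 1 (2.13% against 5.82%) and the GATA word GATAA in 29 (61.7% against 57.6%). GAGAGA was in 13 (27.7% against 21.8%), GAGCGC in 3 (6.38% against 5.45%), CGCGCA in 4 (8.51% against 6.08%) and CCTGCG in 3 (6.38% against 3.19%). TTTCAG, the usual end of a C. elegans splice acceptor, was in 35 (74.5% against 51.7%). On the gene's strand it stood within the 16 bases before the annotated start in 23 (48.9% against 14.2%), and in 4 of the 7 genes with an IDR peak. The median GC content of these promoters was 32.7% against 34.3%. Around summits, GAGAGA and GAGCGC were each at 1 of the 7 rpl IDR peaks, and the remaining words at 0. TTTCAG was at 9 of the other 20 rpl regions, 7.45% of the 94 other IDR peaks and 19.7% of lower regions. At those other IDR peaks GAGAGA was at 18.1% and CGCGCA at 20.2%, against 6.63% and 1.56% of lower regions. These differences were not tested.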

How the data were processed

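ChIP-seq of tagged NHR-84 in L1 larvae gave 2 libraries, labelled biological replicates 1 and 2 of 1 group. The authors deposited narrowPeak lists of called regions on both ce10 and ce11. The deposited file records say that each replicate has a list made from it alone, another list pools both, and the IDR list derives from these, all with a control alignment. Not given in the sources used here were the aligner, the caller, their settings and the IDR cut-off. The signal is the deposited value of the authors' caller, on an unstated scale, and was used only within a list. The caller's −log10 q-value, as deposited, was turned into q. Replicate 1 regions were 290 bp wide and the others 304 bp. Only ce11 lists were used, and no region lay past a chromosome end.

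Genes came from Ensembl release 115 (46926 genes), products and sequence from RefSeq WBcel235. Each gene's value was the highest signal among summits in the window, and its rank in that list, in Python 3.11.15 with numpy 2.4.6, pandas 2.3.3, scipy 1.17.1 and matplotlib 3.10.9. Shares carry 95% Wilson intervals, and a count of 0 allows 3 counts of the total. Results are described by counts, ranks and shares beside all protein-coding genes, with no test, since there was 1 group and no second condition. The window search was tested on simulated data.

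The members, gene lists and tests were chosen with earlier results of these data known, and the words GAGAGA and also GAGCGC, besides CGCGCA and then CCTGCG, were noticed in those results. Named genes were all with an IDR peak or a region among the 1000 highest, the next 3, genes sharing a number, those with no region in any list, and up to 4 per other list. Others were named after their values were seen. The search for 7-base words, TTTCAG near the start, the 250 bp limit and regions within genes were chosen after seeing the data.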

Additional observations from a re-analysis of the deposited data

How the results depend on the processing

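Of 44 alternatives, 14 moved a result, by over 1.5 times for a count or by over 1873, the SD of the replicates' own medians, for the median rank, and in 36 of 36 the rpl share stayed above that of all protein-coding genes. With 250 bp upstream, 15 rpl genes had a pooled region, 1 an IDR peak (rpl-12), 2 one of the 1000 highest regions and 4 a region in both replicates, and the median rank was 3848; by construction this leaves out the summits farther upstream. With 2000 bp upstream and 500 bp downstream, 41 had a pooled region (87.2%) and 34 one in both replicates (72.3%), against 57.4% and 38.6% of all protein-coding genes. With summits in 1 gene's window only, these numbers were 14 for a pooled region, 3 for an IDR peak, 4 for the 1000 highest, 6 for both replicates and 4221 for the median rank. The 2000 highest regions gave 14 genes, and replicate summits within 50 bp gave 9. With 1 replicate left out, the counts ranged from 20 to 28, 5 to 6 and 10 to 10, and the median rank from 862 to 3511, over 1.5 times either way from 1949, which that SD cannot judge since it comes from these medians. No paired analysis was possible because there was 1 group. Depth is unknown, so what a missing region means is limited by the lists.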
